A study of Rattus norvegicus with 8 samples.

Results

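The conjugating enzymes of the second phase of drug metabolism were examined in rat liver after dexamethasone, AICAR or both. Members were all probe sets of the deposited table whose annotation holds a single gene symbol starting with Ugt1, Ugt2, Ugt3, Gsta, Gstm, Gstp, Gstt, Gstk, Gsto, Gstz, Mgst or Sult. The rule found 48 of 31099 probe sets, which stand for 45 of the 14217 genes with a probe set of their own. They comprise 8 UDP-glucuronosyltransferase (UGT) genes on 9 probe sets, 23 glutathione S-transferase (GST) genes on 24 probe sets and 14 sulfotransferase (SULT) genes on 15 probe sets. Where a gene had more than 1 probe set, the brightest on average stood for it. All measured UGT genes belong to the UGT2 family. The 2 probe sets of the UGT1A locus carry 8 symbols each, and with 2 further sets of several symbols they were kept apart from the counts. Ugt1a1, Ugt1a6, Ugt2b17 and Gsta2 had no probe set of their own.

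Conjugation attaches a polar group to drugs, hormones, bilirubin, bile acids and reactive metabolites, so that they dissolve in water and can be exported into bile or blood. UGT enzymes sit in the endoplasmic reticulum and transfer glucuronic acid from UDP-glucuronic acid. GST enzymes, mostly cytosolic, join glutathione to electrophiles, and SULT enzymes transfer sulfate from the donor PAPS to phenols, steroids and bile acids. In hepatocytes many of these genes are under the control of the nuclear receptors PXR (Nr1i2) and CAR (Nr1i3), the aryl hydrocarbon receptor (Ahr) and the antioxidant factor NRF2 (Nfe2l2).

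Male Sprague-Dawley rats of 180 to 200 g were studied in 4 groups, with liver taken 8 h after injection. One group received dexamethasone, a synthetic glucocorticoid, at 1.5 mg/kg into muscle plus the AMPK activator AICAR at 0.7 g/kg into the peritoneum. The others received dexamethasone (1.5 mg/kg) with saline, AICAR (0.7 g/kg) with saline, or saline by both routes (vehicle). Each group held 2 Affymetrix arrays, and no label states that these are different animals. The spread behind each p-value is therefore that between arrays and may be technical. The study's title points to the question whether AMPK alters the metabolic actions of glucocorticoids, and the arrays allow the effect of dexamethasone on conjugating enzymes to be compared with and without AICAR.

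Expression is given as the deposited log2 values, where a difference of 1 is a doubling. Array medians lay between 5.22 and 5.27, r within a group was 0.997 to 0.998, and the median SD within groups was 0.0952. Genes were called at an adjusted p under 0.05 from limma, with Benjamini-Hochberg adjustment over all 31042 probe sets tested, and values after ± are standard errors of the log2 change (n = 2 arrays per group). Hepatocyte markers stood at a mean of 14.02 after both agents, 13.96 to 13.98 after dexamethasone, 13.88 to 13.89 after AICAR and 13.93 to 13.95 in vehicle (7 markers, none under 3.84, the lower quartile of the dimmest array, which serves as the bound for dim signals). The 11 Kupffer cell and macrophage markers averaged 4.57 to 4.61 after both agents, 7.39 to 7.54 after dexamethasone, 8.73 to 8.74 after AICAR and 8.58 to 8.59 in vehicle, and 4 of them were dim after both agents. Of 7 sinusoidal endothelial markers, 5 fell after both agents, 6 after dexamethasone and 1 after AICAR. Of 10 markers of periportal hepatocytes, 4 rose and 5 fell after both agents, 8 rose after dexamethasone and 5 fell after AICAR. Of 11 pericentral markers, 1 rose and 5 fell after both agents, 2 rose and 4 fell after dexamethasone, and 2 rose and 2 fell after AICAR. Of 9 stellate cell markers, 3 rose and 3 fell after both agents, 1 rose and 3 fell after dexamethasone, and 6 rose after AICAR. Lymphocyte markers (8) had 5, 4 and 2 falls in that order of treatments, erythroid markers (5) had 3, 3 and 1, and of 7 bile duct markers at most 1 was called in a direction. Of all genes, 15.9% rose and 18.4% fell after both agents, 8.37% and 14.3% after dexamethasone, and 6.22% and 8.96% after AICAR. On such short lists, a call of 1 or 2 markers describes those genes and does not measure a cell type. In bulk tissue, fewer cells of a type and less RNA per cell cannot be told apart. The actin control, read near its 3′ end minus near its 5′ end as a measure of RNA integrity, gave 1.80 after both agents, 2.04 after dexamethasone, 1.82 after AICAR and 2.23 in vehicle, and the part of cell types, zonation or RNA integrity in the results below was not tested.

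Dexamethasone alone lowered more conjugating enzyme genes than it raised, and most of the falls were among the GST genes. Of 45 genes, 6 rose (13.3%) and 18 fell (40.0%), whereas 8.37% of all genes rose and 14.3% fell. The median change was -0.12 over the 45 genes and -0.03 over all genes. By class, 1 GST gene rose and 12 of 23 (52.2%) fell, with a median of -0.27. Among SULT genes 3 rose and 4 of 14 (28.6%) fell, with a median of -0.10, but these held 5 of the 9 changes of 2-fold or more. Among UGT genes 2 of 8 rose and 2 fell, with changes between -0.93 and 0.70, and no change reached 2-fold. Over all genes, 371 of 14217 were called with a change of 2-fold or more after dexamethasone. Counts over a class describe these genes and are not a test of the class. All genes include dim ones, whereas only 4 of the 45 were dim on average (under 3.84). No comparison with genes of like brightness was made, here or below, so an excess is not shown to be particular to these enzymes.

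AICAR alone changed fewer of them. After AICAR 4 of 45 genes rose and 9 fell, whereas 6.22% of all genes rose and 8.96% fell. The GST class had 2 rises and 6 falls, the SULT class 1 rise and 3 falls and the UGT class 1 rise, that of Ugt2b34l1. No UGT gene was called lower by limma after AICAR, and none had an unadjusted p under 0.05 in that direction. Only Sult1c2 and Sult2a6 changed 2-fold or more, both downwards. Over all genes, 98 of 14217 were called with a change of that size in either direction.

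After both agents 8 genes rose and 18 fell relative to vehicle, against 15.9% higher and 18.4% lower among all genes. GST genes accounted for 3 rises and 10 falls, SULT genes for 3 rises and 4 falls, and UGT genes for 2 rises and 4 falls. When the combination was set against dexamethasone alone, 10 genes were higher and 5 lower, where 14.0% of all genes were higher and 11.3% lower. Of these 10, 7 were GST genes, 2 were UGT genes and 1 was the SULT gene Sult1e1. When it was set against AICAR alone, 8 were higher and 19 lower, where 18.7% of all genes were higher and 19.4% lower.

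**Figure D1:**
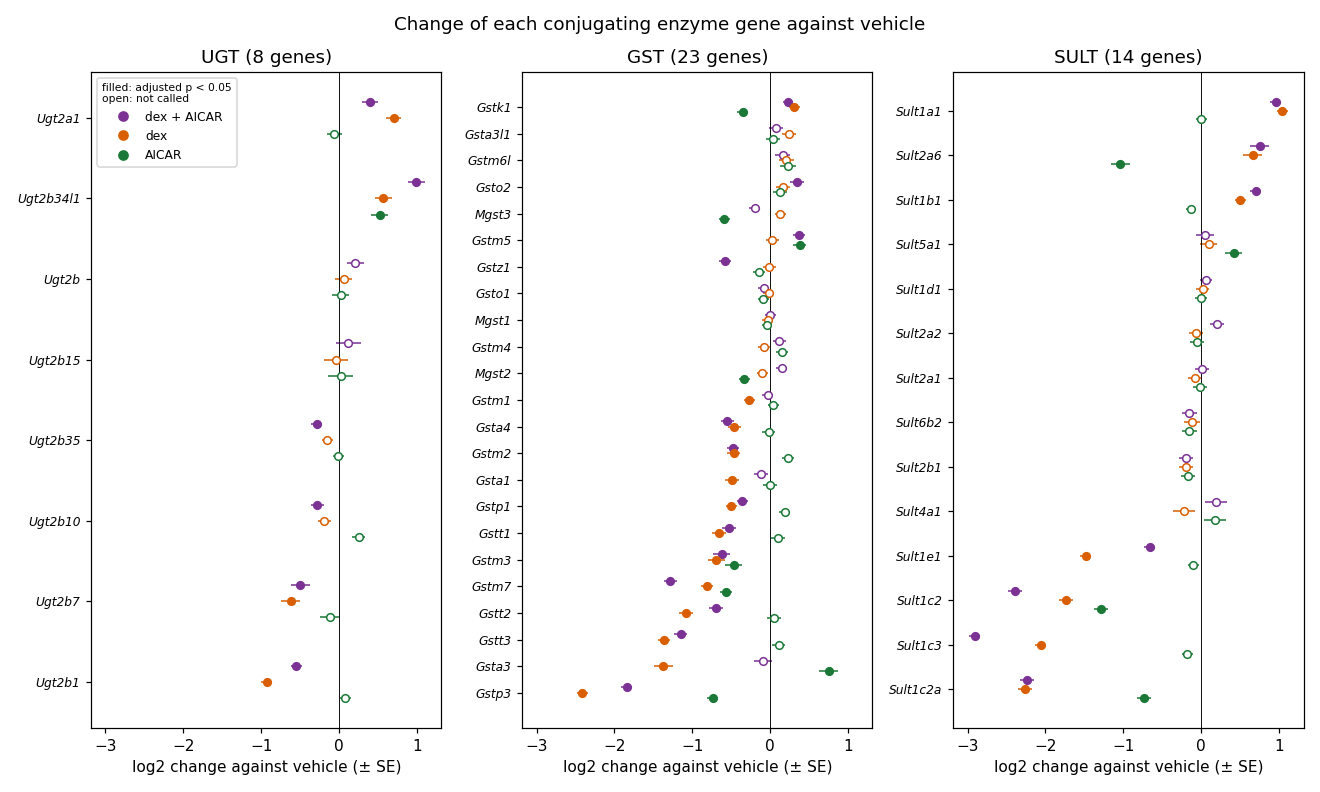
Log2 change against vehicle of each of the 45 genes (x axis, point ± SE) in the 3 enzyme classes, for dexamethasone plus AICAR (purple), dexamethasone (orange) and AICAR (green), 2 arrays per group; filled points were called by limma. Dexamethasone points lie to the left of 0 for most GST genes, and the widest spread in both directions is among SULT genes, from -2.91 to 1.04.

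The dexamethasone effect could be estimated on separate arrays, without AICAR (against vehicle) and with it (against AICAR alone). Of the 45 genes, 6 were higher in both estimates and 15 lower in both. Those higher were Ugt2a1, Ugt2b34l1, Gstk1, Sult1a1, Sult1b1 and Sult2a6. The 3 genes called only without AICAR were Gsta1, Gstm1 and Gstm3, and the 6 called only with it were Gstz1, Mgst2, Mgst3, Sult5a1, Ugt2b10 and Ugt2b35. No gene was called in opposite directions, and 15 were called in neither. Of all genes, 22.7% were called in the estimate without AICAR and 38.2% in that with it, against 53.3% and 60.0% of the 45 genes. The overlap over all genes was not counted, so the agreement is not shown to be particular to these genes. Both estimates also share the same estimate of the spread. A call in 1 estimate alone does not show that the effects differ, and the difference was tested as the interaction: the effect of dexamethasone in the presence of AICAR, less its effect in the absence of AICAR. The interaction was called for 9 genes, 7 positive and 2 negative (15.6% and 4.44%), where 11.9% of all genes were positive and 8.05% negative. In either direction the share was 20.0% for the 45 genes and 20.0% for all genes. The 9 were Gstm3, Gstp3, Gstz1, Mgst2, Sult1c2, Sult1c2a, Sult1c3, Sult1e1 and Sult2a6. Of UGT genes limma called 0 of 8, and 1 in each direction had an unadjusted p under 0.05. A trended and robust prior called 2, and cyclic loess and centring called 1 each.

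**Figure D2:**
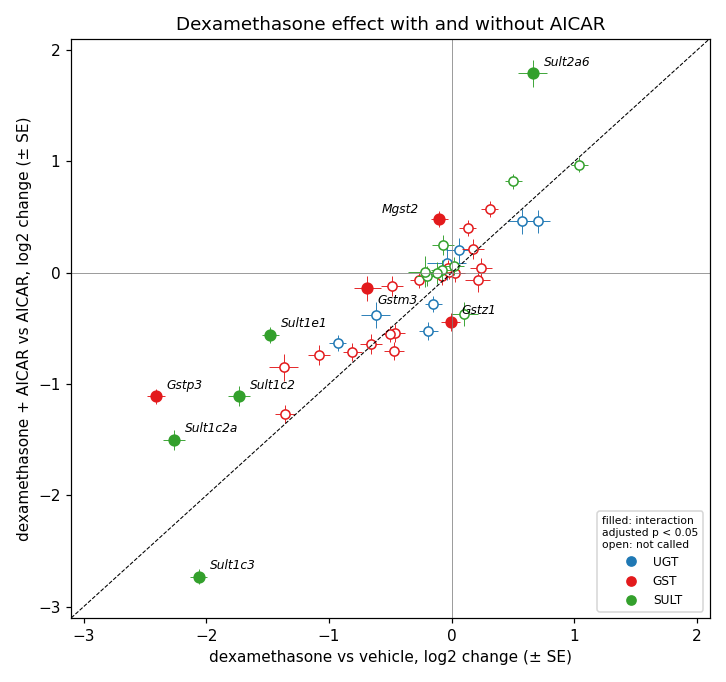
Log2 effect of dexamethasone on each gene with AICAR (y axis, combination against AICAR) and without it (x axis, dexamethasone against vehicle), each ± SE, 2 arrays per group; blue is UGT, red is GST and green is SULT. The dashed line marks equal effects; the 9 filled, named genes were called in the interaction, among them Gstp3 and Sult1e1, whose falls were smaller with AICAR, and Sult1c3, whose fall was larger.

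After both agents the 3 deepest falls among the 45 genes were those of the Sult1c genes. An enzyme of this group is known for activating N-hydroxy arylamines in the liver of male rats. In the GRCr8 order of genes, Sult1c2a, Sult1c2 and Sult1c3 lie near each other on chromosome 9. Sult1c3 read 10.17 and 10.21 after both agents, 11.01 and 11.08 after dexamethasone, 12.94 and 12.91 after AICAR, and 13.07 and 13.14 in vehicle. The 4 groups did not overlap, with both dexamethasone groups far below the others and the combination lowest. Sult1c3 fell by 2.06 ± 0.07 after dexamethasone (4.16-fold, limma adjusted p = 6.47e-07) and by 2.91 ± 0.07 after both agents (adjusted p = 6.04e-08), while AICAR alone gave -0.18 ± 0.07 (adjusted p = 0.144). The combination was lower than dexamethasone alone by -0.85 ± 0.07, and the interaction was -0.68 ± 0.10 (adjusted p = 0.00304).

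Sult1c2a read 8.50 and 8.46 after both agents, 8.45 and 8.46 after dexamethasone, 9.97 and 9.99 after AICAR, and 10.84 and 10.59 in vehicle. Both dexamethasone groups sat at the same low level, and AICAR alone lay between them and vehicle. It fell by 2.26 ± 0.09 after dexamethasone (4.80-fold, limma adjusted p = 1.38e-06), by 2.24 ± 0.09 after both and by 0.74 ± 0.09 after AICAR, and the combination did not pass against dexamethasone (0.03 ± 0.09, adjusted p = 0.874). Sult1c2 was lowered by each agent and lowest after both: it read 5.83 and 5.88 after both agents, 6.58 and 6.45 after dexamethasone, 6.93 and 6.99 after AICAR, and 8.33 and 8.16 in vehicle. The 4 groups did not overlap, and its changes against vehicle were -2.39 ± 0.09 after both (limma adjusted p = 3.38e-07), -1.73 ± 0.09 after dexamethasone (adjusted p = 4.12e-06) and -1.28 ± 0.09 after AICAR (adjusted p = 8.83e-05). For Sult1c2a and Sult1c2 the interaction was positive (0.76 ± 0.13 and 0.62 ± 0.12), so the sum of the 2 single effects exceeded the effect of the combination. Only for Sult1c3 of these 3 was it negative. A further probe set, annotated with Sult1c2 and 1 other symbol, read 4.66 and 4.89 after both agents, 5.41 and 5.20 after dexamethasone, 5.19 and 5.49 after AICAR, and 5.80 and 5.79 in vehicle. Its changes had the same direction as those of Sult1c2 but were smaller, at -1.02 ± 0.13 after both, -0.49 ± 0.13 after dexamethasone and -0.45 ± 0.13 after AICAR, and its interaction was -0.08 ± 0.18 (limma adjusted p = 0.828). The positive interaction of Sult1c2 thus rests on its own probe set alone.

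The promoters of the Sult1c genes are shown because these genes fell most after both agents. Each is given from 250 bases before the gene's start to 50 bases after it, 5′ to 3′ in the direction of the gene, from RefSeq on GRCr8: Sult1c3 at chr9:7594207-7594506 (minus strand), Sult1c2a at chr9:7103153-7103452 (minus strand) and Sult1c2 at chr9:7436731-7437030 (plus strand). Capitals mark TGTTCT on either strand (AGAACA when read on the other), the hexamer that glucocorticoid receptors recognise.
Sult1c3: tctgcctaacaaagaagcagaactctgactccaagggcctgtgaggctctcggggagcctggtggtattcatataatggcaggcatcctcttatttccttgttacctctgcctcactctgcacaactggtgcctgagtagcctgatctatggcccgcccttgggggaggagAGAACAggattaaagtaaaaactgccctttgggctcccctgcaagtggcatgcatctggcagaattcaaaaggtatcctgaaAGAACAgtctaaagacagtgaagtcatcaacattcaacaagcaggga
Sult1c2a: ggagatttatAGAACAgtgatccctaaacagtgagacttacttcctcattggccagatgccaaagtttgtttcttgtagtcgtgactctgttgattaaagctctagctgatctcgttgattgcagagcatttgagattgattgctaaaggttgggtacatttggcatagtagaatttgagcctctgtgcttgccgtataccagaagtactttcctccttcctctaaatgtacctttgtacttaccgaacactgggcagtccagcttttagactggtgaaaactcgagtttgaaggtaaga
Sult1c2: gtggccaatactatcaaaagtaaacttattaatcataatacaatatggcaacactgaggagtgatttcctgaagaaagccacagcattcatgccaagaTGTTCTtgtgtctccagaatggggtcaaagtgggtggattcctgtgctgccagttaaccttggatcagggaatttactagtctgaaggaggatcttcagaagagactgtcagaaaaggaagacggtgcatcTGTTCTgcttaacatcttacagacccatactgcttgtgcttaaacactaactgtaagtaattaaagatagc

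The hexamer was found 2 times in Sult1c3, first 79 bases before the start, 1 time in Sult1c2a, 240 bases before it, and 2 times in Sult1c2, 152 and 21 bases before it. TGTTCT on either strand occurs in 20.7% of all 33469 promoters of this length and in 11 of the 38 member genes with a promoter in the table (28.9%). The full palindrome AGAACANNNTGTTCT occurs in 0.0149% of promoters and in none of the 38. A match of letters describes the window and does not show binding.

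Sult1e1, the oestrogen sulfotransferase gene, read 12.64 and 12.71 after both agents, 11.86 and 11.84 after dexamethasone, 13.24 and 13.24 after AICAR, and 13.30 and 13.36 in vehicle. Dexamethasone arrays were lowest, the combination stood between, and AICAR arrays lay just under vehicle. It fell by 1.48 ± 0.07 after dexamethasone (2.79-fold, limma adjusted p = 3.18e-06) and by 0.66 ± 0.07 after both (adjusted p = 0.000191). The combination exceeded dexamethasone alone by 0.82 ± 0.07 (adjusted p = 9.76e-05), and the interaction was 0.92 ± 0.10 (adjusted p = 0.000596). Adding AICAR therefore went with a smaller fall of Sult1e1 and a larger fall of Sult1c3.

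Sult2a6 encodes a hydroxysteroid sulfotransferase, of the family that acts on bile acids and steroids. It read 9.35 and 9.29 after both agents, 9.35 and 9.11 after dexamethasone, 7.53 and 7.54 after AICAR, and 8.72 and 8.42 in vehicle. The agents alone moved it in opposite directions, up by 0.66 ± 0.12 after dexamethasone (limma adjusted p = 0.0049) and -1.04 ± 0.12 after AICAR (2.05-fold lower, adjusted p = 0.00115). After both agents it was 0.75 ± 0.12 above vehicle (adjusted p = 0.00158) and overlapped with dexamethasone alone, from which it did not differ by the test (0.09 ± 0.12, adjusted p = 0.663). Against AICAR alone the combination was 1.79 ± 0.12 higher, and the interaction was 1.13 ± 0.17 (adjusted p = 0.00269).

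Sult2a1 and Sult2a2 lie near Sult2a6 on chromosome 1, yet Sult2a1 read 2.47 to 2.72 on every array and Sult2a2 read 2.89 to 3.31, both under 3.84, and neither was called. The promoters of Sult2a6 and Sult2a1 match at 292 of 300 positions, and those of Sult2a6 and Sult2a2 at 257. At signals this low the arrays give no measure of change. Whether probe sets of close paralogues in the Sult2a, Gstm and Ugt2b groups also pick up each other's transcripts could not be checked without probe sequences, so values for single genes of these groups are those of the annotated probe set.

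Sult1a1, the main phenol sulfotransferase gene, rose after dexamethasone whether or not AICAR was given. It read 13.68 and 13.68 after both agents, 13.75 and 13.76 after dexamethasone, 12.73 and 12.71 after AICAR, and 12.71 and 12.72 in vehicle. The dexamethasone groups lay together at the top and the others together below. It rose by 1.04 ± 0.07 after dexamethasone (2.06-fold, limma adjusted p = 1.83e-05) and by 0.96 ± 0.07 after both (adjusted p = 1.6e-05), with an interaction of -0.07 ± 0.10 (adjusted p = 0.662). Sult1b1, whose enzyme sulfates thyroid hormones and small phenols, read 13.75 and 13.76 after both agents, 13.59 and 13.53 after dexamethasone, 12.91 and 12.96 after AICAR, and 13.09 and 13.04 in vehicle. No groups overlapped, and it rose by 0.50 ± 0.07 after dexamethasone (limma adjusted p = 0.00145) and by 0.70 ± 0.07 after both (adjusted p = 0.000136). By symbol, Sult1e1, which fell, Sult1d1 and Sult1b1, which rose, follow each other on chromosome 14, with Sult1d1 at 2.40 to 2.57 on every array. The gene ID of the Sult1e1 probe set did not match GRCr8, so its place beside them rests on the symbol.

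The promoters of the SULT genes that rose by the most are shown beside those of the genes that fell: Sult1a1 at chr1:190706063-190706362 (minus strand) and Sult2a6 at chr1:84097759-84098058 (minus strand), RefSeq, GRCr8, with the same hexamer in capitals.
Sult1a1: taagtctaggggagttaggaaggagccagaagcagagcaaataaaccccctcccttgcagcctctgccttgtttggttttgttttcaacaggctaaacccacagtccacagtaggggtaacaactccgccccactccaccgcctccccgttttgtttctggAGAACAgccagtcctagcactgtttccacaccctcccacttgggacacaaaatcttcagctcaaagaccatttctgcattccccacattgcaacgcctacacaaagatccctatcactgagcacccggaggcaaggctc
Sult2a6: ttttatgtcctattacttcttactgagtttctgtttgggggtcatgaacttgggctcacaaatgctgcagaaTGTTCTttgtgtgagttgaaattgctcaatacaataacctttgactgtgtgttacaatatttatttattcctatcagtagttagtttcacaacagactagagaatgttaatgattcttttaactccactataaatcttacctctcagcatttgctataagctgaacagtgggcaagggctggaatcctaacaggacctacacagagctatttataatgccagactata

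The hexamer stood 1 time in each, 89 bases before the start of Sult1a1 and 178 bases before that of Sult2a6. Among the SULT genes shown, those that rose and those that fell both carried it. Of those not shown, Sult1b1 was called higher and its promoter lacked the hexamer, whereas Sult2a2 was not called and carried it. The genes shown were chosen by the size of their change, and the part of the hexamer in the changes was not tested.

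**Figure D3:**
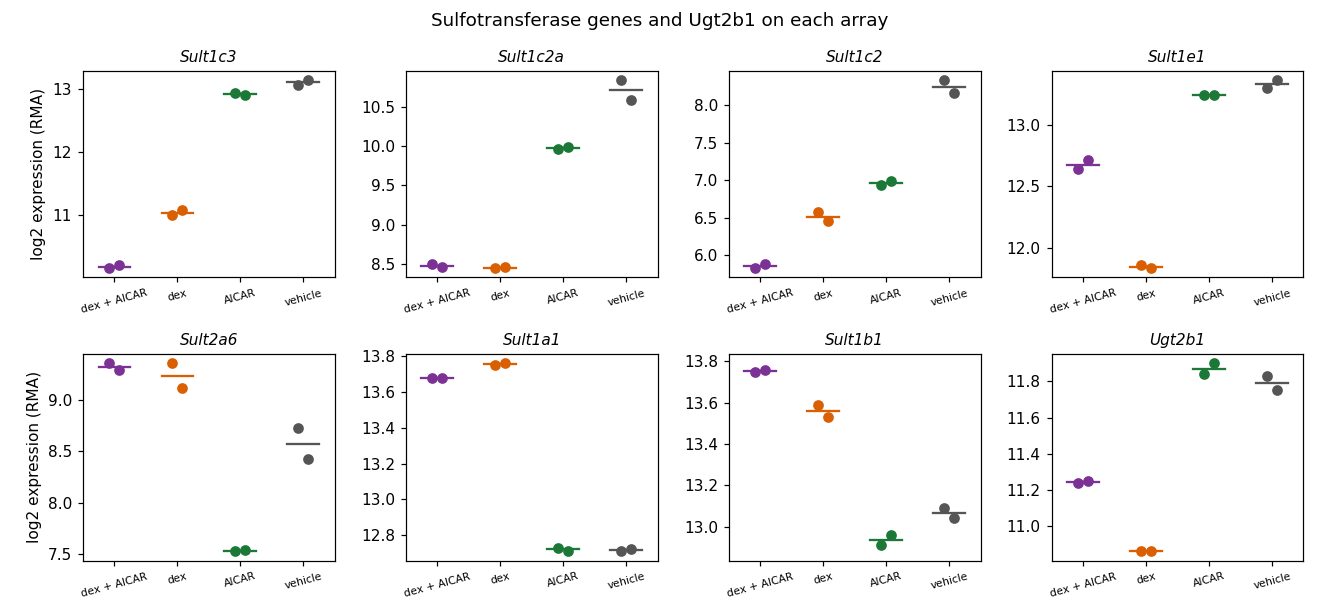
Log2 expression of 7 SULT genes and Ugt2b1 on each array (points) with the mean of the 2 arrays of a group (lines), for dexamethasone plus AICAR, dexamethasone, AICAR and vehicle from left to right; each panel has its own scale, which does not start at 0. Sult1c3 is lowest after both agents (10.17 and 10.21), Sult1e1 is lowest after dexamethasone alone, and Sult1a1 is high in both dexamethasone groups.

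The remaining SULT genes changed little. Sult5a1 was called higher after AICAR (0.42 ± 0.11, limma adjusted p = 0.044), and without vehicle replicate 1 or 2, AICAR replicate 1 or either combination array the adjusted p lay above 0.05 and reached 0.231. Cyclic loess ended the limma call of Sult5a1 after AICAR as well (adjusted p = 0.053), and so did limma fitted to only the groups compared (0.0789). Sult4a1, Sult6b2 and Sult1d1 were not called in any comparison. Sult2b1, whose enzyme sulfates pregnenolone and cholesterol, was represented by a probe set that was not called (-0.20 ± 0.09 after dexamethasone). Its dimmer probe set read 3.85 and 3.77 after both agents, 4.89 and 5.11 after dexamethasone, 4.57 and 4.46 after AICAR, and 3.89 and 3.78 in vehicle. That set rose by 1.17 ± 0.10 after dexamethasone and by 0.68 ± 0.10 after AICAR but gave -0.03 ± 0.10 after both, with an interaction of -1.87 ± 0.14 (limma adjusted p = 6.57e-05). The 2 probe sets of this gene disagree, so no direction is given for it.

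Among GST genes the pi, theta and alpha subfamilies held the largest changes after dexamethasone alone, whereas after both agents the mu gene Gstm7 (-1.28) ranked next to Gstp3. Gstp3, a pi-class gene, read 9.93 and 9.89 after both agents, 9.30 and 9.39 after dexamethasone, 11.03 and 11.00 after AICAR, and 11.74 and 11.77 in vehicle. The 4 groups did not overlap, with vehicle highest and dexamethasone alone lowest. It fell by 2.41 ± 0.07 after dexamethasone (5.31-fold, limma adjusted p = 3.02e-07), by 1.84 ± 0.07 after both and by 0.74 ± 0.07 after AICAR. The combination was 0.56 ± 0.07 above dexamethasone alone (adjusted p = 0.000812), and the interaction was 1.30 ± 0.10 (adjusted p = 0.0001). AICAR thus went with a lower Gstp3 level in the absence of dexamethasone and a higher one in its presence.

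Gstp1, the pi-class gene next to Gstp3 on chromosome 1 and in rat liver a known marker of preneoplastic foci, changed much less. It read 8.22 and 8.21 after both agents, 8.12 and 8.03 after dexamethasone, 8.71 and 8.81 after AICAR, and 8.59 and 8.55 in vehicle. Both dexamethasone groups were below the other groups, and its changes were -0.36 ± 0.07 after both (limma adjusted p = 0.00747), -0.50 ± 0.07 after dexamethasone (adjusted p = 0.00206) and 0.19 ± 0.07 after AICAR (adjusted p = 0.139). The promoters of this pair are shown because the neighbours differ in size of response: Gstp3 at chr1:210787635-210787934 and Gstp1 at chr1:210769656-210769955, both on the minus strand of GRCr8, from RefSeq. Capitals in Gstp1 mark the antioxidant element core TGACNNNGC, which NRF2 is known to bind.
Gstp3: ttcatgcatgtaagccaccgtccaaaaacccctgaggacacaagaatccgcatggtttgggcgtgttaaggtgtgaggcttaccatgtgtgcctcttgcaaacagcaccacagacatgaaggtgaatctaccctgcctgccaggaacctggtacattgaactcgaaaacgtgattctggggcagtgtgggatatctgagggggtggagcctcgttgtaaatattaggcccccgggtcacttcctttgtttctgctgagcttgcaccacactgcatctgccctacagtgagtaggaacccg
Gstp1: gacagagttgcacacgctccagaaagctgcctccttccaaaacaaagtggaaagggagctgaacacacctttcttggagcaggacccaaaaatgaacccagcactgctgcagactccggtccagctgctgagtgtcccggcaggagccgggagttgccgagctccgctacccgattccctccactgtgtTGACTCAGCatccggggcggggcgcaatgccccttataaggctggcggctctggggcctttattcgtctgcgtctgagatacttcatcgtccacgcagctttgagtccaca

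The antioxidant core began 61 bases before the start of Gstp1, where it overlaps with the AP-1 motif TGANTCA. It is found on either strand in 12.1% of all promoters of this length and in 6 of 38 member genes (15.8%), which are Gsta1, Gsta3, Gstm5, Gstm7, Gstp1 and Gstz1. The Gstp3 window holds neither this core nor the glucocorticoid hexamer. The AP-1 motif occurs in 7.33% of promoters and in 5 of the 38.

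The theta genes Gstt1, Gstt2 and Gstt3, whose enzymes act on small halogenated molecules, fell together after dexamethasone and did not pass after AICAR. Gstt3 read 8.89 and 8.83 after both agents, 8.59 and 8.74 after dexamethasone, 10.13 and 10.12 after AICAR, and 10.03 and 10.01 in vehicle. The dexamethasone groups lay more than 1 log2 unit below the others, and the change was -1.36 ± 0.08 after dexamethasone (2.56-fold lower, limma adjusted p = 8.88e-06) and -1.15 ± 0.08 after both (adjusted p = 1.3e-05). Gstt2 read 8.82 and 8.62 after both agents, 8.28 and 8.38 after dexamethasone, 9.41 and 9.51 after AICAR, and 9.39 and 9.44 in vehicle. It fell by 1.08 ± 0.09 after dexamethasone (2.11-fold, limma adjusted p = 7.27e-05) and by 0.69 ± 0.09 after both. Its dimmer probe set changed by -0.38 ± 0.13 after dexamethasone and was not called (adjusted p = 0.0784), and after both agents it gave -0.03 ± 0.13 (adjusted p = 0.886), so the fall of Gstt2 after both rests on the brighter set. Gstt1 fell by 0.66 ± 0.09 after dexamethasone and by 0.53 ± 0.09 after both. The interaction of the theta genes lay between 0.02 and 0.34 and was not called.

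Gsta3, an alpha-class gene, moved in opposite directions after the single agents. It read 6.04 and 6.37 after both agents, 4.82 and 5.04 after dexamethasone, 7.02 and 7.08 after AICAR, and 6.29 and 6.30 in vehicle. Arrays of the combination spanned those of vehicle, dexamethasone arrays were lowest and AICAR arrays highest. Gsta3 fell by 1.37 ± 0.12 after dexamethasone (2.58-fold, limma adjusted p = 9.46e-05) and rose by 0.75 ± 0.12 after AICAR (adjusted p = 0.00534), and after both the change was -0.09 ± 0.12 (adjusted p = 0.634). The combination exceeded dexamethasone alone by 1.28 ± 0.12 (adjusted p = 0.000145). The interaction was 0.52 ± 0.17 (adjusted p = 0.0716). Of the other alpha genes, Gsta4, whose enzyme detoxifies 4-hydroxynonenal, fell by 0.46 ± 0.08 after dexamethasone and by 0.55 ± 0.08 after both, and Gsta1 fell by 0.49 ± 0.09 after dexamethasone, against -0.12 ± 0.09 after both (adjusted p = 0.378). Gsta3l1 was below 3.84 on average and not called.

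Of 7 mu-class genes 4 fell after dexamethasone. Gstm7 read 8.03 and 8.11 after both agents, 8.50 and 8.59 after dexamethasone, 8.79 and 8.78 after AICAR, and 9.28 and 9.42 in vehicle. The groups did not overlap, and the fall was largest with the agents combined. It was 1.28 ± 0.08 after both (limma adjusted p = 7.87e-06), 0.81 ± 0.08 after dexamethasone (adjusted p = 0.0002) and 0.57 ± 0.08 after AICAR (adjusted p = 0.00317), with an interaction of 0.09 ± 0.11 (adjusted p = 0.642). Gstm3 read 6.62 and 6.71 after both agents, 6.72 and 6.46 after dexamethasone, 6.75 and 6.87 after AICAR, and 7.19 and 7.38 in vehicle. All 3 treated groups were below vehicle (-0.62, -0.69 and -0.47, each ± 0.11, for both agents, dexamethasone and AICAR), and the combination overlapped with dexamethasone. Gstm3 is also on the list of pericentral hepatocyte markers, of which 2 of 11 rose and 4 fell after dexamethasone, while 8 of 10 periportal markers rose and none was called lower. Gstm2 fell by 0.48 ± 0.08 after both and by 0.47 ± 0.08 after dexamethasone. Gstm1 was called after dexamethasone at -0.27 ± 0.07. Gstm5 was called higher after both agents (0.37 ± 0.08) and after AICAR (0.38 ± 0.08), with 0.03 ± 0.08 after dexamethasone.

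Of the zeta, kappa, omega and membrane-bound GST genes, several differed between the combination and the single agents. Gstz1, which encodes maleylacetoacetate isomerase of tyrosine breakdown, read 10.98 and 10.93 after both agents, 11.54 and 11.50 after dexamethasone, 11.42 and 11.37 after AICAR, and 11.59 and 11.47 in vehicle. The combination lay below all the others, dexamethasone and vehicle overlapped, and the change after both agents was -0.58 ± 0.08 (limma adjusted p = 0.000573). Its interaction was -0.43 ± 0.11 (adjusted p = 0.0292). Mgst2, a membrane enzyme able to form leukotriene C4, read 11.55 and 11.52 after both agents, 11.26 and 11.31 after dexamethasone, 11.05 and 11.06 after AICAR, and 11.38 and 11.39 in vehicle. The groups did not overlap, with the combination highest and AICAR alone lowest, and the interaction was 0.58 ± 0.10 (limma adjusted p = 0.00517). Mgst3 fell by 0.59 ± 0.07 after AICAR, and after both agents it gave -0.20 ± 0.07 (adjusted p = 0.0681). Gstk1, of mitochondria and peroxisomes, was called higher after both agents (0.23 ± 0.07) and dexamethasone (0.31 ± 0.07) and lower after AICAR (-0.35 ± 0.07). Mgst1, a major membrane enzyme of liver, read between 14.02 and 14.09 on all 8 arrays and was called in no comparison. Gsto1, Gstm4 and Gstm6l were not called either.

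**Figure D4:**
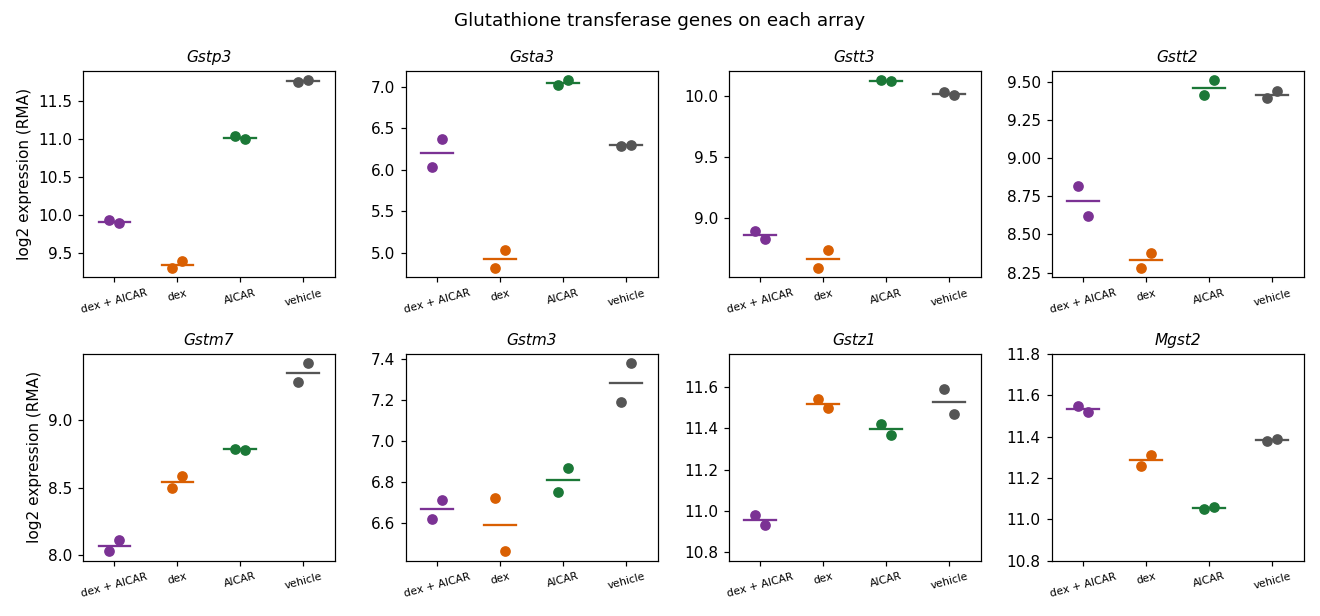
Log2 expression of 8 GST genes on each array (points) with the mean of the 2 arrays of a group (lines), for dexamethasone plus AICAR, dexamethasone, AICAR and vehicle from left to right; each panel has its own scale, which does not start at 0. Gstp3 is lowest after dexamethasone alone (9.30 and 9.39) and Gsta3 returns to the vehicle level after both agents, while Gstz1 is low only after both.

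Calls of small GST changes ended when single arrays were left out, and some also under other scaling or with only the groups compared. A rise, fall or interaction said to end lost its call. Leaving out an array leaves 1 in its group and less to estimate the spread from. A call near the threshold can then end while its estimate stays: Gstk1 after both agents kept 0.23 without any 1 dexamethasone or AICAR array. Cyclic loess and centring each ended the limma call of the Gstm3 interaction (adjusted p = 0.0754 in both). Centring ended the fall of Gstm1 after dexamethasone (0.0637), and cyclic loess the rise of Gstk1 after both agents (0.1). Against dexamethasone alone, cyclic loess ended the calls of Gstm1 (0.0947) and Mgst2 (0.0676), and centring that of Gstm1 (0.0575). With limma fitted to only the groups compared, calls ended for Gstk1 (0.0545) and Gstm1 (0.0911) after dexamethasone and Gstk1 after both (0.0782). They also ended for Gstm5 (0.0541) and Mgst2 (0.0515) after AICAR. For the combination against dexamethasone they ended for Gstm1 (0.0936) and Mgst2 (0.0786). The calls of Gstk1 ended without vehicle replicate 1 or 2 or dexamethasone replicate 2 after dexamethasone (adjusted p up to 0.0797), without any 1 array of the groups compared after AICAR (0.0616 to 0.0879) and without any 1 of the 8 arrays after both agents (up to 0.234). The fall of Gstm1 after dexamethasone ended without any 1 array of vehicle, dexamethasone or the combination (adjusted p up to 0.114), and that of Gstm3 after AICAR without vehicle replicate 2 or either AICAR array (0.0608 to 0.14). The rise of Gstm5 ended after AICAR without either vehicle array or AICAR replicate 2 (adjusted p up to 0.116) and after both agents without combination replicate 1 (0.075). That of Gsto2 after both agents (0.34 ± 0.09) ended without any 1 array of the groups compared (0.0623 to 0.118), as did the fall of Mgst2 after AICAR (-0.33 ± 0.07, up to 0.0953). Against dexamethasone alone, the combination lost the calls of Gsta1, Gstm1, Gstm5, Gstt2, Mgst2 and Mgst3 without combination replicate 1 (adjusted p up to 0.204), and all of these but that of Gstt2 without combination replicate 2. The calls of Gstm5 and Gstt2 also ended without dexamethasone replicate 1, those of Gsta1 and Mgst3 without dexamethasone replicate 2, and those of Gstm1 and Mgst2 without either. The interaction of Gstm3 (0.55 ± 0.15, adjusted p = 0.0444) ended without vehicle replicate 2, dexamethasone replicate 2, or any 1 array of AICAR or the combination (up to 0.136), and that of Gstz1 without any 1 array other than vehicle replicate 1 (0.0568 to 0.101). The number of GST genes called after AICAR was 5 and 4 without vehicle replicate 1 and 2, and 5 and 4 without AICAR replicate 1 and 2, in place of 8. For the combination against dexamethasone it was 4 and 5 without combination replicate 1 and 2 and 6 without either dexamethasone array, in place of 10. For the interaction it was 2 without dexamethasone replicate 2, either AICAR array or combination replicate 2, in place of 4.

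UGT genes changed least in size. Ugt2b1, whose enzyme glucuronidates morphine and testosterone, read 11.24 and 11.25 after both agents, 10.86 and 10.86 after dexamethasone, 11.84 and 11.90 after AICAR, and 11.83 and 11.75 in vehicle. AICAR arrays lay just above vehicle (0.08 ± 0.07, limma adjusted p = 0.501), and both dexamethasone groups were below them without overlap. It fell by 0.93 ± 0.07 after dexamethasone (1.91-fold, limma adjusted p = 4.81e-05) and by 0.55 ± 0.07 after both, and the combination was 0.38 ± 0.07 above dexamethasone (adjusted p = 0.00567). The interaction was 0.30 ± 0.10 (adjusted p = 0.0821).

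The other UGT2 genes lie with Ugt2b1 in a cluster on chromosome 14. Ugt2b34l1 read 6.61 and 6.52 after both agents, 5.99 and 6.30 after dexamethasone, 6.03 and 6.18 after AICAR, and 5.55 and 5.61 in vehicle, so that vehicle was lowest, the combination highest and the single agents overlapped. It rose by 0.99 ± 0.11 after both (limma adjusted p = 0.000234), 0.57 ± 0.11 after dexamethasone and 0.52 ± 0.11 after AICAR. Ugt2a1, best known from olfactory tissue, rose by 0.40 ± 0.10 after both and by 0.70 ± 0.10 after dexamethasone (adjusted p = 0.00154). Ugt2b7 fell by 0.50 ± 0.12 after both and by 0.62 ± 0.12 after dexamethasone, from a vehicle mean of 4.38 near the dim end of the array. Ugt2b10 and Ugt2b35 were called lower than vehicle after both agents and not after either alone, at -0.28 ± 0.08 and -0.29 ± 0.07. Their interactions were not called (-0.33 ± 0.11 and -0.12 ± 0.10, limma adjusted p = 0.0803 and 0.47). Nor did the combination pass against dexamethasone alone (adjusted p = 0.511 and 0.247). Ugt2b15 and the brighter probe set of Ugt2b were not called, whereas the dimmer set of Ugt2b was called higher after both agents (0.53 ± 0.11) and after dexamethasone (0.38 ± 0.11, adjusted p = 0.0492). A difference between the 2 probe sets of a gene leaves its change uncertain.

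Some of these UGT calls also ended when single arrays were left out. Centring ended the limma call of Ugt2b10 after both agents (adjusted p = 0.0506). The number called after both agents was 2 in place of 6 without combination replicate 2, which ended the calls of Ugt2a1, Ugt2b7, Ugt2b10 and Ugt2b35 (adjusted p from 0.0584 to 0.107). Without vehicle replicate 1 or combination replicate 1 the calls of Ugt2b10 and Ugt2b35 ended, and without vehicle replicate 2 those of Ugt2a1 and Ugt2b7. Ugt2b10 then gave -0.22 and -0.25 in place of -0.28, and Ugt2b35 -0.26 and -0.26 in place of -0.29. Ugt2a1 gave 0.34 in place of 0.40, and Ugt2b7 -0.32 in place of -0.50. With 1 array left in a group, a call can end with little change of the estimate. The single rise after AICAR ended without any 1 array of the groups compared (0.0506 to 0.0985). For the combination against AICAR the number was 3 without AICAR replicate 1 or either combination array, in place of 6. For the combination against dexamethasone it was 1 without dexamethasone replicate 1 or either combination array, in place of 2. The rise of Ugt2b34l1 after dexamethasone or both agents, and the fall of Ugt2b1 after dexamethasone or both, kept their calls without any 1 array.

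The probe sets with several symbols cannot be assigned to a gene; the one that includes Sult1c2 is given with that gene. Those of the UGT1A locus read 11.41 and 11.39 (first set) and 12.54 and 12.51 (second set) after both agents, 10.77 and 10.82 and then 12.16 and 12.20 after dexamethasone, 11.33 and 11.37 and then 12.64 and 12.60 after AICAR, and 11.35 and 11.34 and then 12.62 and 12.70 in vehicle. In both sets only dexamethasone alone was lower, at -0.55 ± 0.07 and -0.48 ± 0.07 (limma adjusted p = 0.000776 and 0.00188), while the combination lay near vehicle (0.06 ± 0.07 and -0.14 ± 0.07). The interaction was 0.60 ± 0.10 and 0.39 ± 0.10 (adjusted p = 0.00433 and 0.0338). The UGT1A enzymes conjugate bilirubin and planar phenols. A set with 2 alpha-class GST symbols gave -0.24 ± 0.07 after both agents, -0.24 ± 0.07 after dexamethasone and 0.26 ± 0.07 after AICAR.

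Genes that supply the co-substrates also changed, counted against the shares of all genes given above. Ugp2, which makes the UDP-glucose from which UDP-glucuronic acid is formed, read 10.98 and 10.94 after both agents, 11.64 and 11.62 after dexamethasone, 11.56 and 11.65 after AICAR, and 12.38 and 12.33 in vehicle. Each agent lowered it and the fall after both (1.39 ± 0.07, limma adjusted p = 2.96e-06) was close to the sum of the single changes (-0.72 ± 0.07 and -0.75 ± 0.07). Of the 6 measured genes of UDP-glucuronic acid supply, 2 rose and 3 fell after both agents, 1 and 2 after dexamethasone, and 1 and 1 after AICAR. Slc35d2, a nucleotide sugar carrier, was called lower after both agents (-1.24 ± 0.08, adjusted p = 1.13e-05), with -0.07 ± 0.08 after dexamethasone and 0.08 ± 0.08 after AICAR.

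Of 9 genes of PAPS supply, 1 rose and 5 fell after both agents, 4 fell after dexamethasone and 1 fell after AICAR. Papss2, which makes PAPS, read 10.24 and 10.14 after both agents, 10.42 and 10.46 after dexamethasone, 11.27 and 11.22 after AICAR, and 11.59 and 11.59 in vehicle. The groups did not overlap, and it fell by 1.40 ± 0.07 after both (limma adjusted p = 2.91e-06) and by 1.15 ± 0.07 after dexamethasone (adjusted p = 1.62e-05). Its smaller fall after AICAR (-0.34 ± 0.07) ended without any 1 array of the groups compared (adjusted p from 0.0717 to 0.0969). The sulfate carrier gene Slc13a4 fell by 1.04 ± 0.08 after both and by 0.98 ± 0.08 after dexamethasone, with 0.01 ± 0.08 after AICAR. The falls of the sulfate donor genes thus accompanied the fall of the Sult1c genes and the rise of Sult1a1 in the same arrays.

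Of 12 genes of glutathione synthesis and turnover, 2 rose and 4 fell after both agents, 3 fell after dexamethasone, and 1 rose and 1 fell after AICAR. Gclc, the catalytic subunit of the enzyme that limits glutathione synthesis, read 9.15 and 9.25 after both agents, 9.12 and 9.22 after dexamethasone, 9.27 and 9.21 after AICAR, and 10.06 and 10.09 in vehicle. The 3 treated groups overlapped at one level below vehicle, and the interaction was 0.86 ± 0.11 (limma adjusted p = 0.00125). Its partner Gclm fell by 0.89 ± 0.10 after both and by 0.82 ± 0.10 after dexamethasone, with -0.18 ± 0.10 after AICAR (adjusted p = 0.32).

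**Figure D5:**
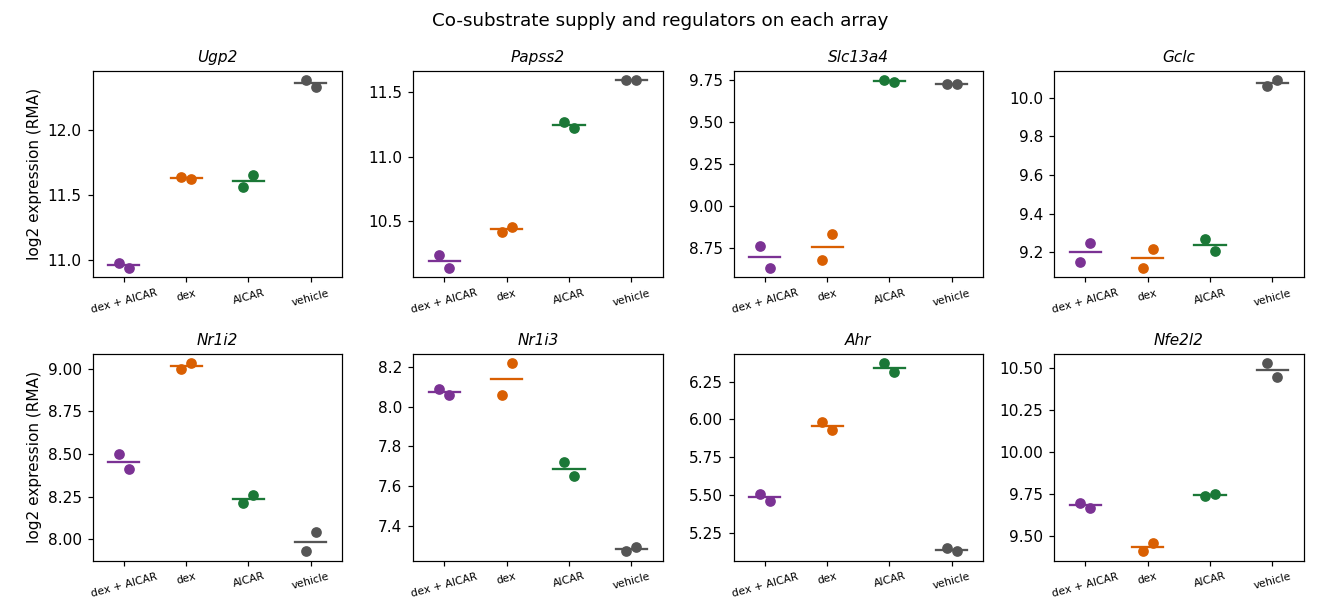
Log2 expression of co-substrate genes (Ugp2, Papss2, Slc13a4, Gclc) and regulators (Nr1i2, Nr1i3, Ahr, Nfe2l2) on each array (points) with the mean of the 2 arrays of a group (lines), for dexamethasone plus AICAR, dexamethasone, AICAR and vehicle from left to right; each panel has its own scale, which does not start at 0. Ugp2 is lowest after both agents, and Nr1i2 is highest after dexamethasone alone (9.00 and 9.03).

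The receptors that govern these genes moved in several ways. Of 15 receptors and regulators, 5 rose and 6 fell after both agents, 5 rose and 4 fell after dexamethasone, and 3 rose and 2 fell after AICAR. Nr1i2 read 8.50 and 8.41 after both agents, 9.00 and 9.03 after dexamethasone, 8.21 and 8.26 after AICAR, and 7.93 and 8.04 in vehicle. It rose by 1.03 ± 0.08 after dexamethasone (limma adjusted p = 3.79e-05) and by 0.47 ± 0.08 after both, with an interaction of -0.81 ± 0.11 (adjusted p = 0.00164). Nr1i3 rose by 0.79 ± 0.08 after both and by 0.86 ± 0.08 after dexamethasone, and arrays of these groups met at 8.06. Ahr read 5.51 and 5.46 after both agents, 5.98 and 5.93 after dexamethasone, 6.37 and 6.31 after AICAR, and 5.15 and 5.13 in vehicle. It rose after either agent alone (0.82 ± 0.07 and 1.20 ± 0.07) by more than after both (0.34 ± 0.07), and this last call ended without combination replicate 1 (adjusted p = 0.0529) and with the mean over the probe sets of the gene (adjusted p = 0.19). Nfe2l2 fell by 0.80 ± 0.07 after both, by 1.05 ± 0.07 after dexamethasone and by 0.74 ± 0.07 after AICAR.

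Target genes of these receptors did not follow one direction. Of 16 NRF2 response genes, 3 rose and 8 fell after both agents, 2 rose and 10 fell after dexamethasone, and 3 rose and 2 fell after AICAR. Me1, which encodes malic enzyme, fell by 1.50 ± 0.07 after both and by 1.05 ± 0.07 after dexamethasone, and Akr7a3, which encodes an aflatoxin aldehyde reductase, fell by 1.71 ± 0.09 after both and by 1.50 ± 0.09 after dexamethasone. Nqo1, a quinone reductase gene on both the NRF2 and the AHR list, went the other way, higher by 1.98 ± 0.07 after both, 0.47 ± 0.07 after dexamethasone and 2.06 ± 0.07 after AICAR. Of 7 AHR response genes, 2 rose and 2 fell after both agents, 2 rose after dexamethasone, and 3 rose and 1 fell after AICAR; Cyp1a1 rose by 1.22 ± 0.12, 2.62 ± 0.12 and 0.92 ± 0.12 in that order. Of 13 CAR and PXR response genes, 2 rose and 8 fell after both agents, 3 rose and 7 fell after dexamethasone, and 3 rose and 3 fell after AICAR. Slco1a4, an organic anion carrier, changed by -2.56 ± 0.07 after both and by -2.21 ± 0.07 after dexamethasone, while Por, the electron donor of cytochromes P450, rose by 1.23 ± 0.10 and 1.85 ± 0.10.

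Genes that act after or beside these enzymes were counted in the same way. Of 8 conjugate export pumps, 1 rose and 4 fell after both agents, 3 fell after dexamethasone, and 1 rose and 1 fell after AICAR. Abcc2, the pump for glucuronide and glutathione conjugates into bile, read 9.62 and 9.51 after both agents, 10.27 and 10.42 after dexamethasone, 10.62 and 10.61 after AICAR, and 10.56 and 10.62 in vehicle. Its fall after both agents (1.03 ± 0.08, limma adjusted p = 3.47e-05) exceeded the dexamethasone value (-0.25 ± 0.08, adjusted p = 0.0695), and the interaction was -0.80 ± 0.12 (adjusted p = 0.00238). Of 8 conjugate hydrolases, 1 rose and 1 fell after both agents, 3 rose and 1 fell after dexamethasone, and 2 rose after AICAR. Of 16 other conjugating enzymes (methyl, acetyl and amino acid transferases), 6 rose and 7 fell after both agents, 6 rose and 5 fell after dexamethasone, and 2 rose and 4 fell after AICAR. Among them the nicotinamide methyltransferase gene Nnmt rose by 1.51 ± 0.07 after both and by 1.88 ± 0.07 after dexamethasone. Nat8, whose enzyme acetylates cysteine conjugates to mercapturic acids, fell by 1.06 ± 0.09, 1.45 ± 0.09 and 1.31 ± 0.09 after both agents, dexamethasone and AICAR.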

How the data were processed

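Rat liver RNA was hybridised to 8 Affymetrix arrays. The values are log2 expression that the authors deposited after RMA with affy, per the submitters' processing notes (versions and settings not given in the sources used here); the log base was read from the range of the values. No raw probe signal was used. Of 31099 probe sets, 57 array controls were left out. limma 3.58.1 (R 4.3.3) was fitted to 31042 probe sets with 1 coefficient per group, and p-values were adjusted by Benjamini-Hochberg. Probe sets were named by GEO's platform annotation: 20826 had 1 symbol, 436 several and 9780 none here. Of the 45 genes, 44 matched GRCr8 by gene ID, and Sult1e1 did not. Any member could be named, with per-array values for those called and changed 2-fold or more in a pairwise comparison or called in the interaction, and for a panel. The members and gene lists were chosen with earlier results of these data known.

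Arrays of the same number deviated together at r = 0.16 in vehicle and dexamethasone and between -0.0418 and 0.00882 in the other pairs, so numbers were not taken to pair samples. On simulated data (dexamethasone against vehicle, 31042 probe sets) the test recovered 44% of changes of 0.5 log2, 90% of 1 and 100% of 2, with 8 false among 175 calls. The simulation drew independent normal noise and changed only 50 probe sets for each size of change. In the data 18.4% of all probe sets were called in this comparison, so recovery there may differ. An exact permutation test of 2 against 2 arrays cannot go below p = 0.333, and the number of arrays limits the precision. Alternatives covered scaling, dim probe sets, the prior, the groups fitted, a replicate block, a fold minimum, the mean over probe sets and leaving out each array.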

Additional observations from a re-analysis of the deposited data

Results flagged for a closer look

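The dexamethasone effect differed with and without AICAR in 9 genes by the test of the difference itself (limma, adjusted over all probe sets, 2 arrays per group). The difference was 1.30 for Gstp3, 1.13 for Sult2a6, 0.92 for Sult1e1, 0.76 for Sult1c2a, 0.62 for Sult1c2, 0.58 for Mgst2 and 0.55 for Gstm3, and it was -0.43 for Gstz1 and -0.68 for Sult1c3 (log2). For Gstp3, Sult1e1, Sult1c2a, Sult1c2 and Gstm3 the fall after dexamethasone was smaller with AICAR, and for Sult2a6 the rise was larger. The same share of all genes, 20.0%, was called in this test. The calls of Gstm3 and Gstz1 ended when single arrays were left out, and that of Gstm3 also under cyclic loess, centring or a replicate block. For Sult1c2 the probe set that it shares with another symbol gave a difference of -0.08 ± 0.18.

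A probe set with 2 alpha-class symbols, which entered no count, was 0.26 higher after AICAR than in vehicle (limma adjusted p = 0.0402).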

How the results depend on the processing

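Over 45 genes and 6 comparisons, 1502 of 1569 values under other settings and 2039 of 2160 with 1 array left out kept their direction and side of the threshold. With 1 array left out, the lone array of its group is assumed to vary like the other groups. The mean over probe sets reversed Sult2b1, to 0.49 after dexamethasone (adjusted p = 0.00361) and -0.86 in the interaction (adjusted p = 0.00179), because its probe sets disagree. A 2-fold minimum left 0 UGT genes after dexamethasone, AICAR or both and for the combination against dexamethasone or AICAR. It left 4 GST genes after dexamethasone, 0 after AICAR, 3 after both, 1 and 2 for the combination against dexamethasone and AICAR, and 1 in the interaction. For SULT genes it left 2 after AICAR, 3 after both, 0 and 4 for the combination against dexamethasone and AICAR, and 1 in the interaction. Of all 14217 genes it left 371 after dexamethasone, 98 after AICAR and 624 after both. It left 346 and 632 of them for the combination against dexamethasone and AICAR, and 448 in the interaction. UGT genes called after AICAR were 2 under cyclic loess, centring or the trended prior, and in the interaction 1, 1 and 2. For the combination against dexamethasone they were 4 under the trended prior and 1 with only the groups compared. The trended prior also called 11 GST genes in the interaction, and 7 SULT genes after AICAR and 5 for the combination against dexamethasone. Other than by construction, the cause was not tested.

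Without single arrays, UGT calls numbered 4 to 4 after dexamethasone, 0 to 1 after AICAR, 2 to 6 after both, 1 to 3 and 3 to 6 for the combination against dexamethasone and AICAR, and 0 to 0 in the interaction. GST calls numbered 11 to 13, 4 to 8, 10 to 12, 4 to 9, 13 to 14 and 2 to 4 in the same order, and SULT calls 7 to 7, 3 to 4, 7 to 7, 3 to 4, 7 to 9 and 5 to 6. A replicate block, though the numbers did not pair the samples, left 13 GST calls after dexamethasone, 12 after both and 9 for the combination against dexamethasone. It ended the calls of Gstk1 after both (adjusted p = 0.0611), Gstm1 for the combination against dexamethasone (0.0587) and the interaction of Gstm3 (0.0608), and added that of Gsta3 (0.52, adjusted p = 0.0432). With 2 arrays per group, small changes and dim probe sets stay poorly measured.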
